A study of Danio rerio with 20 samples.

Results

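Zebrafish embryos exposed to 1 mg/L HFPO-DA were compared directly with embryos exposed to 0.5 mg/L, with no untreated pool in the contrast. HFPO-DA (hexafluoropropylene oxide-dimer acid, also called GenX) is a fluorinated ether acid of the PFAS class, and its solutions were pH-neutralized here. The 8 pools compared, 4 at 1 mg/L against 4 at 0.5 mg/L, were picked by their labelled exposure alone and are 8 of the 19 pools analysed in the series. All were whole embryos of the AB strain, kept singly in well plates with the compound from the sphere stage, a few hours after fertilization, until 72 hpf, the protruding-mouth stage. Pools a to d held 9, 9, 9 and 10 embryos at 1 mg/L and 10, 8, 10 and 10 embryos at 0.5 mg/L. The study set each exposure against untreated embryos, and the direct contrast asks which genes separate its 2 lowest exposures. Untreated pools and pools at 2 and 10 mg/L are given below only as a description.

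At 72 hpf, the heart beats, the swimming muscle contracts, the lens is packed with crystallins, the retina has begun to respond to light and the yolk still feeds the embryo. A sequenced pool of whole embryos therefore mixes the transcripts of all tissues. Ribosomal protein genes, contractile genes, keratins and crystallins make up the most abundant of these transcripts. Ribosomal proteins are built in near-equal numbers into the small (Rps) and large (Rpl) subunits of the ribosome. PFAS such as HFPO-DA are known in rodents as activators of PPAR alpha, the nuclear receptor that turns on genes of fatty acid oxidation in liver.

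The values are TMM-normalized expression values, in which each library is scaled so that most genes keep the same level. Reads on genes numbered 137539, 149257, 185581 and 581494 in pools a to d at 1 mg/L, against 173301, 143986, 204179 and 443076 at 0.5 mg/L. Pool d was the deepest in both groups, and the group median was 167419 at 1 mg/L, against 188740 at 0.5 mg/L. The mean of log2 reads differed by -0.007 (1 minus 0.5 mg/L, exact permutation test, two-sided p = 1.0), and the medians were not tested. Between 6198 and 7832 genes had a read in a pool at 1 mg/L and between 6175 and 7515 at 0.5 mg/L, of 9368 genes listed. Of 47 marker genes fixed for 14 tissues, 35 were listed and 27 had reads in all 8 pools. They covered photoreceptors, lens, skeletal muscle, heart, red cells, neutrophils and macrophages, epidermis, liver, neurons, pigment cells and vessels. None of the 3 listed exocrine pancreas markers had reads in all 8 pools. The glia and hatching gland markers were not among the genes listed, and 1 heart marker had 0 reads. Gene values are from whole embryos, so fewer cells of a type and less RNA per cell cannot be told apart.

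Few genes were called between the exposures. The 3 tested genes with the smallest p in limma, rpl24, rps28 and rps19, encode ribosomal proteins and had lower values at 1 mg/L, while edgeR put prelid1a, with a higher mean at 1 mg/L, and cyc1 ahead of them. Limma called 0 of 6933 tested genes (0.0%) at a Benjamini-Hochberg adjusted p under 0.1, and the smallest adjusted p was 0.117, shared by rpl24 and rps28. At an unadjusted p under 0.05, limma gave 367 genes (5.29%), of which 199 (2.87%) were higher and 168 (2.42%) lower at 1 mg/L. With no change in any gene, 347 would be expected. The 4 pools at 1 mg/L lay above all 4 pools at 0.5 mg/L in 101 genes (1.46%), and below all of them in 102 genes (1.47%). On the same reads, edgeR's quasi-likelihood test called 8 genes (0.115%), of which 7 (0.101%) were lower at 1 mg/L, and gave 357 genes (5.15%) an unadjusted p under 0.05. DESeq2 called 0 (0.0%), with 119 genes (1.72%) at an unadjusted p under 0.05. The 7 lower edgeR calls were rps28, rpl24, rps19, rpl39, myl1, cyc1 and hsp90aa1.2, and the higher one was prelid1a. These fits did not pair the pools. With the letters a to d as a block, limma called 19 of the 6933 genes and edgeR 22. The limma calls held all 10 lower genes named below for their small p in the main fit, and 1 of the 10 higher ones. The edgeR calls held 6 of these lower genes and 0 of the higher ones. Ribosomal protein genes made up 6 of the 19 and 9 of the 22. In reads simulated for these 8 libraries, limma recovered 20.9% of well covered genes changed 1.5-fold. It recovered 65.7% of those changed 2-fold and 100% of those changed 4-fold. The simulation changed 200 genes at once and gave each gene the spread usual at its level, with no shift shared by pools of a letter. Recovery in the real pools could therefore be lower. Most differences of the size described below could thus go uncalled.

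The 2 directions differed by expression level. Among the 694 genes with the highest levels, 1 in 10 of those tested, the median log2 fold change (1 over 0.5 mg/L) was -0.06, with 66 genes lower and 22 higher at an unadjusted limma p under 0.05. Among the other 6239 genes, the median was 0.03, with 102 lower and 177 higher. Over all tested genes, the median was 0.01 and 48.4% were below 0. The plot of level and difference shows the ribosomal protein genes at the right, where the levels are high and the scatter is narrow, mostly under the zero line.

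**Figure D1:**
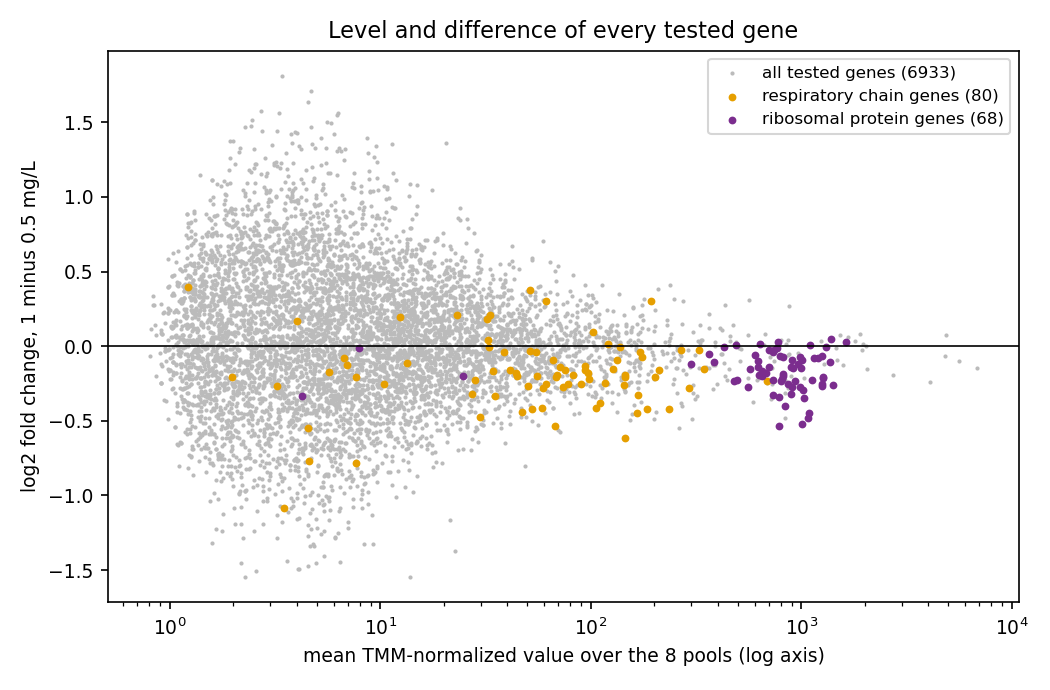
Log2 fold change of every tested gene (1 minus 0.5 mg/L) against its mean TMM-normalized value over the 8 pools, on a log axis. Ribosomal protein genes lie at the high end and mostly below 0, and the spread of the other genes widens toward low values.

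The genes closest to limma's threshold were ribosomal. The gene rps28, for a small-subunit protein, had TMM-normalized values of 783, 796, 993 and 768 in pools a to d at 1 mg/L, against 1220.3, 1114, 1239.9 and 1189 at 0.5 mg/L. No pool overlapped between the groups, and pool c at 1 mg/L stood highest in its group. Its log2 fold change was -0.52 ± 0.12 (SE, the standard error of the fit, limma adjusted p = 0.117, edgeR adjusted p = 0.0167). The gene rpl24, for a large-subunit protein that faces the small subunit, had 583, 567, 753 and 659.9 at 1 mg/L, against 929.7, 881, 1027 and 858 at 0.5 mg/L. The groups again did not overlap, and the log2 fold change was -0.53 ± 0.12 (SE, limma adjusted p = 0.117, edgeR adjusted p = 0.0167). Leaving out pool c or d at 1 mg/L, or pool d at 0.5 mg/L, brought both genes under the limma threshold, with limma adjusted p of 0.0274, 0.0233 and 0.0364 for rpl24 and 0.0274, 0.0919 and 0.0821 for rps28. In the other 5 leave-outs neither was called, with adjusted p between 0.233 and 0.930 for both.

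The gene rps19, whose human counterpart is mutated in Diamond-Blackfan anemia, was also lower in every pool at 1 mg/L. It had 814, 955, 1022 and 796 at 1 mg/L, against 1293, 1228, 1271 and 1191 at 0.5 mg/L. The log2 fold change was -0.48 ± 0.12 (SE, limma adjusted p = 0.226, edgeR adjusted p = 0.0285). Without pool c at 1 mg/L it was called, with an adjusted p of 0.0511 in limma, and in the other 7 leave-outs the adjusted p was between 0.110 and 0.930. The gene rpl39, which encodes a short protein lining the exit tunnel of the ribosome, had 835, 932, 1063 and 819.7 at 1 mg/L, against 1126, 1052, 1743 and 1145 at 0.5 mg/L. Its groups overlapped, and 1 pool, c at 0.5 mg/L, stood far above the rest. The log2 fold change of rpl39 was -0.45 ± 0.13 (SE, limma adjusted p = 0.488, edgeR adjusted p = 0.0285) with this pool and -0.29 without it.

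The untreated pools bear on how these values are read. For rps28 the 3 untreated pools had 1098, 786 and 889, and for rpl24 903, 538 and 688. For rps19 they had 1315, 689 and 929. In each of these genes, untreated pool a lay near or above the pools at 0.5 mg/L and untreated pool b within or below those at 1 mg/L, so the 3 untreated pools spanned most of the distance between the exposures. In order of dose, the means of rps28 were 924 ± 159 in untreated pools, 1191 ± 55.5 under 0.5 mg/L, 835 ± 106 under 1 mg/L, 1059.9 ± 74.4 under 2 mg/L and 1059.9 ± 165 under 10 mg/L (SD, n = 3 untreated and 4 at each exposure). The level at 2 and 10 mg/L lay between those at 0.5 and 1 mg/L, so it did not follow the dose.

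**Figure D2:**
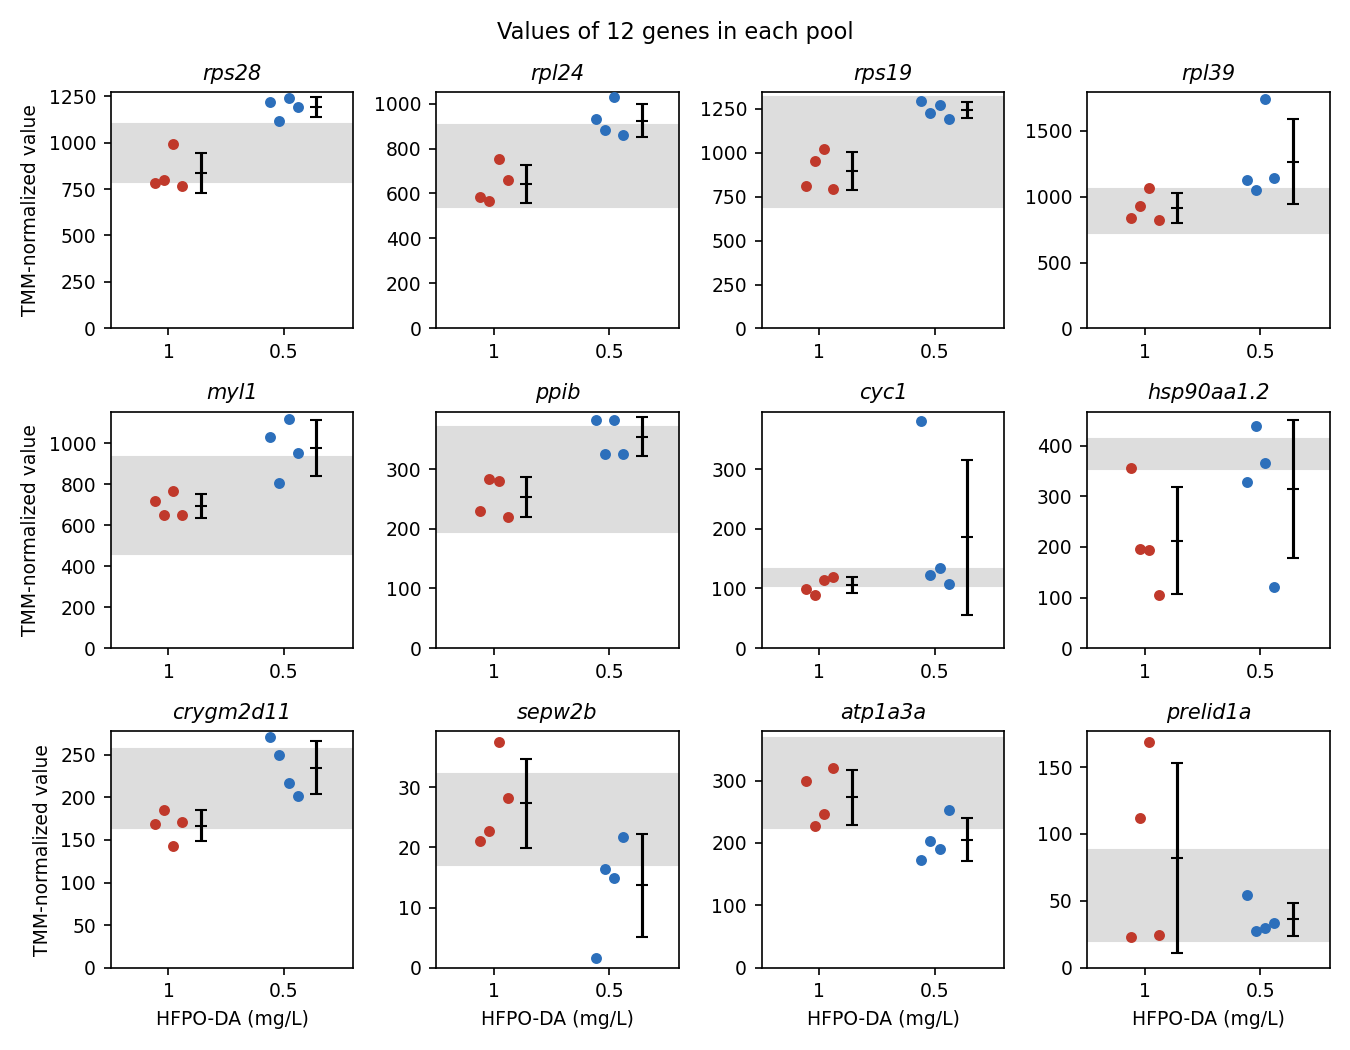
TMM-normalized values of 12 genes in each pool at 1 mg/L (left) and 0.5 mg/L (right), with mean ± SD (n = 4) beside the points and the range of the 3 untreated pools as a grey band. In rps28, rpl24, rps19, myl1, ppib and crygm2d11 the groups do not overlap, cyc1 has 1 high pool at 0.5 mg/L, and prelid1a has 2 high pools at 1 mg/L.

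The ribosomal protein genes as a whole leaned the same way, by a small amount. Of 68 tested genes of both subunits, 62 had a log2 fold change below 0 and the median was -0.16, against 0.01 over all tested genes. At an unadjusted limma p under 0.05, 17 were lower at 1 mg/L and 0 higher, and 12 had no overlap between the groups, all lower. Over all tested genes, 2.42% were lower at that p and 1.47% were lower without overlap, and of the 694 genes with the highest levels 66 were lower at that p. None of the 68 was called by limma in the main fit and 4 were called by edgeR without a block. The 32 small-subunit genes were all below 0, with a median of -0.19, 11 at an unadjusted p under 0.05 and 9 with no overlap. Of the 36 large-subunit genes, 30 were below 0, with a median of -0.12, 6 at an unadjusted p under 0.05 and 3 with no overlap.

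Further genes of the group had smaller differences. The gene rps3a had 679, 702, 771 and 711 at 1 mg/L, against 1012, 821, 1114 and 865 at 0.5 mg/L, a log2 fold change of -0.40 ± 0.12 (SE). The gene rps3, whose protein sits at the mRNA entry of the small subunit, averaged 904 ± 104 at 1 mg/L against 1149 ± 89.7 at 0.5 mg/L, a log2 fold change of -0.35 ± 0.12 (SE). Neither gene overlapped between the groups. The values for rpl18 were 695 ± 88.2 at 1 mg/L against 877 ± 95.2 at 0.5 mg/L, with overlap. The gene rplp0, for the base of the ribosomal stalk and a common reference gene in PCR, had 1189.6, 1222, 1391 and 1354 at 1 mg/L, against 1645, 1425, 1447 and 1655 at 0.5 mg/L (SD, n = 4 in each mean of this paragraph). Its log2 fold change was -0.26 ± 0.11 (SE). Reads of single ribosomal protein genes are uncertain, since copies elsewhere in the genome with nearly the same sequence can take or lend them.

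**Figure D3:**
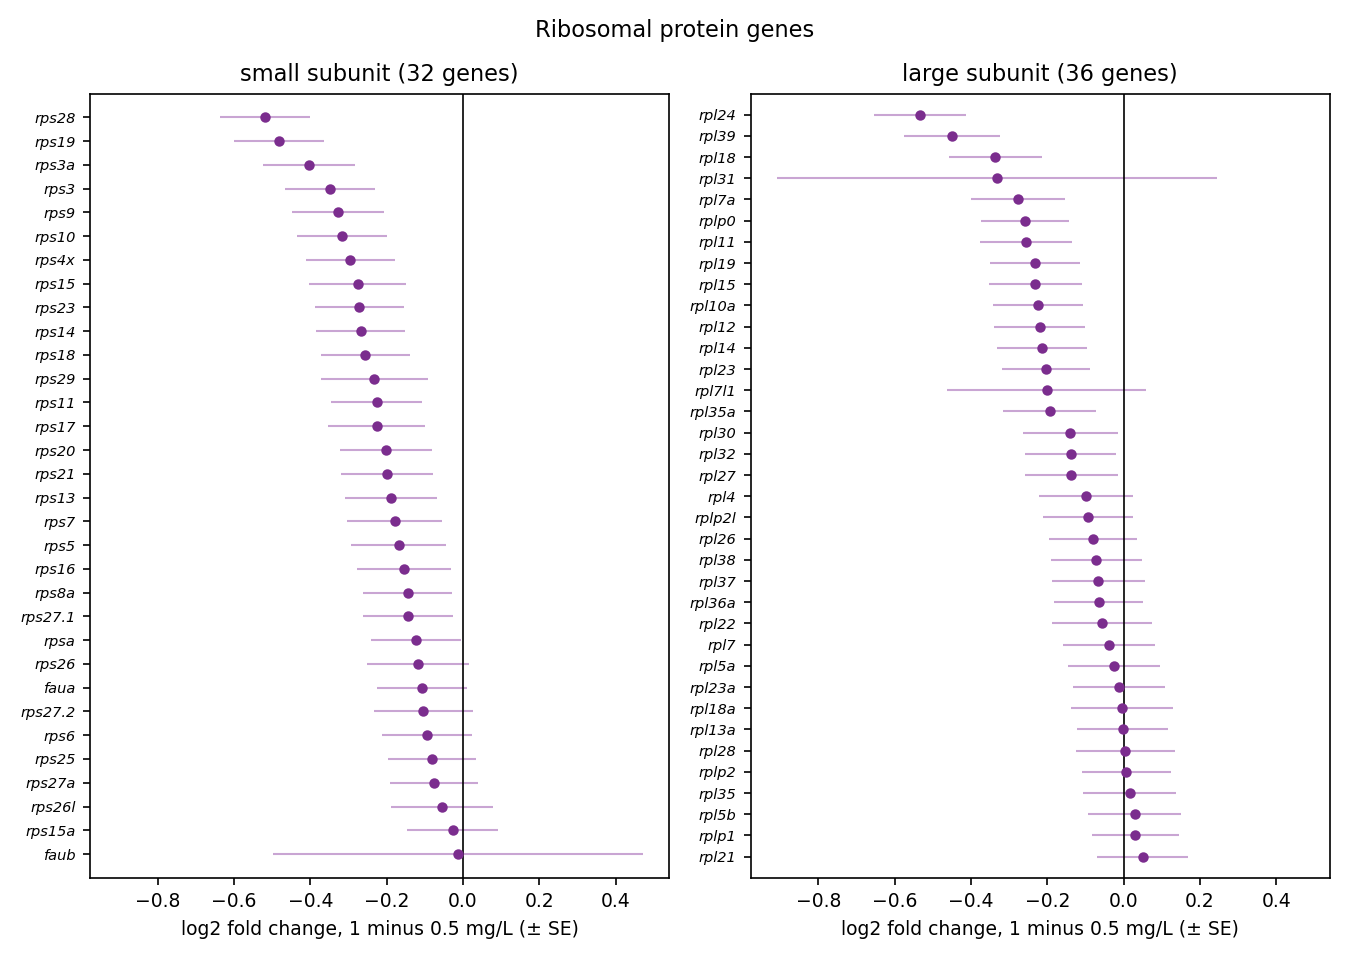
Log2 fold change (1 minus 0.5 mg/L) with its standard error for each tested ribosomal protein gene, with the 32 small-subunit genes in the left panel and the 36 large-subunit genes in the right. All points of the small subunit lie below 0, and 6 of the large subunit lie above it.

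Summed over the 68 genes, the ribosomal level was 51440, 53077, 58064 and 51113 in pools a to d at 1 mg/L, against 61922, 56185, 61528 and 60956 at 0.5 mg/L. The ratio of the group means was 0.888, and pool c at 1 mg/L lay above pool b at 0.5 mg/L. The 3 untreated pools had 59076, 44476 and 53436, a range wider than that of both exposures together. Pools a, c and d at 0.5 mg/L nevertheless lay above all of the untreated pools. At 2 mg/L the sums ran between 56887 and 63850, and at 10 mg/L between 55906 and 62881. The distance of the group from 0 depended on how the libraries were scaled. Rescaling by library total raised the median of the group from -0.16 to -0.10 and that of all genes from 0.01 to 0.07. The gap between the group and all genes was thus about the same, while 15 of the 68 genes were above 0. Quantile normalization gave the group a median of -0.04, with 27 genes above 0, and the large-subunit genes a median of 0.02, so that their direction was lost. The small-subunit genes stayed below 0 in their median in both, at -0.13 and -0.06.

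Genes of the respiratory chain, the mitochondrial complexes that pass electrons to oxygen and make ATP, had medians as low as those of the ribosomal genes. Of 38 tested complex I genes, 34 were below 0, with a median of -0.20, and 4 were lower at an unadjusted p under 0.05 against 0 higher. Of 42 genes of complexes II to V, 34 were below 0, with a median of -0.16, and 8 were lower at an unadjusted p under 0.05 against 0 higher. Over all tested genes, 2.42% were lower at that p, as were 66 of the 694 genes with the highest levels. No gene of the 2 respiratory lists was called by limma in the main fit. In the direct contrast, both medians stayed below 0 when rescaled by library total (-0.14 and -0.10) and under quantile normalization (-0.20 and -0.13). The complex I sum was 2085, 1979, 2207 and 1919.95 at 1 mg/L, against 2507, 2209.96, 2497 and 2246 at 0.5 mg/L, with no overlap but with pool c at 1 mg/L and pool b at 0.5 mg/L almost level. The untreated sums were 2500.0, 1688 and 2025. They reached from below all pools at 1 mg/L to just under the highest pool at 0.5 mg/L. The mitochondrial genome's own genes were not among the genes listed.

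Single genes of the chain did not pass limma's threshold in the main fit. The gene cox8a, for a small subunit of cytochrome c oxidase, had 111, 141, 154 and 159 at 1 mg/L, against 178, 215, 191 and 182 at 0.5 mg/L. Its groups did not overlap, and the log2 fold change was -0.45 ± 0.15 (SE, limma adjusted p = 0.748). The complex I subunit gene ndufb11 had 46.1, 48.9, 80.7 and 48.1 at 1 mg/L, against 87.5, 78.2, 77.3 and 73.1 at 0.5 mg/L, so that pool c alone at 1 mg/L reached the other group. The values of ndufa8, another complex I subunit gene, were 39.8 ± 4.97 at 1 mg/L against 54.1 ± 4.70 at 0.5 mg/L (SD, n = 4), with no overlap. For ndufb10 the means were 95.7 ± 14.7 at 1 mg/L against 125 ± 20.15 at 0.5 mg/L (SD, n = 4), with overlap.

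The edgeR call of cyc1, which encodes cytochrome c1 of complex III, rested on 1 pool. Its values were 99.8, 89.0, 114 and 119 at 1 mg/L, against 379.8, 122, 134 and 107 at 0.5 mg/L. Pool a at 0.5 mg/L stood far above every other pool, untreated ones included (133, 104 and 109). The log2 fold change was -0.61 ± 0.19 (SE, limma adjusted p = 0.748, edgeR adjusted p = 0.00921), and without that pool it was -0.20. Limma called it in 1 of 8 leave-outs, without pool d at 0.5 mg/L (adjusted p = 0.0295). The genes cox7c and atp5j2, for small subunits of complexes IV and V, had log2 fold changes of -0.42 each (SE 0.16 and 0.16). For atp5j2, pool c at 0.5 mg/L (415 against 202 to 271 in the others of its group) carried much of this, and without it the log2 fold change was -0.20.

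The genes tomm6 and prelid1a, which also act in mitochondria, had differences that depended on single pools. The gene tomm6, for a small subunit of the outer membrane's import pore, had 15.4, 31.4, 59.12 and 45.3 at 1 mg/L, against 61.1, 51.0, 63.8 and 62.8 at 0.5 mg/L. The log2 fold change was -0.81 ± 0.23 (SE, limma adjusted p = 0.581), and -0.43 without pool a at 1 mg/L, which had 8 reads. Limma called it without pool c or d at 1 mg/L, with adjusted p of 0.0511 and 0.0919, and in none of the other 6 leave-outs (0.278 to 0.984). The gene prelid1a, for a carrier of phosphatidic acid between the mitochondrial membranes, is named after its values were seen, because edgeR called it. Pools b and c at 1 mg/L had 112 and 169, while pools a and d had 23.03 and 24.5, and the pools at 0.5 mg/L had 54.5, 27.3, 29.8 and 33.3. The groups overlapped on both sides, and untreated pool a was also high at 87.9. The log2 fold change was 0.71 ± 0.29 (SE, limma adjusted p = 0.814, edgeR adjusted p = 7.94e-04), and 0.19 without pool c at 1 mg/L. Without pool d at 1 mg/L, limma called it, with an adjusted p of 0.0233, and in the other 7 leave-outs the adjusted p was between 0.394 and 0.984. For the mitochondrial ribosome, 36 of 60 tested genes were below 0, with a median of -0.09. Its leading gene, mrps30, averaged 11.4 ± 6.41 at 1 mg/L against 18.4 ± 1.50 at 0.5 mg/L (SD, n = 4).

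Over all 72 tested heat shock and chaperone genes, the median was -0.03, and 43 were below 0 and 29 above. At an unadjusted p under 0.05, 6 were lower and 0 higher, and none was called by limma in the main fit. Of all tested genes, 2.42% were lower at that p. Of single genes for chaperones of the endoplasmic reticulum, where secreted proteins fold, ppib, hspa5 and calr3b are given because of their small p. None passed the main limma fit. Among the 23 alternative settings, ppib was called in 2, hspa5 in 3 and calr3b in 1. The gene ppib, for a cyclophilin that helps collagen fold, had 230.3, 283, 279.7 and 219 at 1 mg/L, against 381, 326, 383 and 326 at 0.5 mg/L. Its groups did not overlap, with a log2 fold change of -0.49 ± 0.13 (SE, limma adjusted p = 0.488). The gene hspa5, for the chaperone BiP, had 163, 127, 124 and 89.2 at 1 mg/L, against 219.6, 186, 206.2 and 109 at 0.5 mg/L. The gene calr3b, for a calreticulin, had 61.4, 66.3, 51.9 and 45.3 at 1 mg/L, against 116, 89.2, 88.2 and 52.6 at 0.5 mg/L. In both genes pool d was the lowest of each group, and the groups overlapped through it. The log2 fold changes were -0.50 for hspa5 (SE 0.17) and -0.58 for calr3b (SE 0.19), each with a limma adjusted p of 0.748. Without pool d at 0.5 mg/L, limma called both, with adjusted p of 0.0295 and 0.0759, and neither in the other 7 leave-outs (0.517 to 0.984 for hspa5 and 0.677 to 0.984 for calr3b).

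The cytosolic chaperone gene hsp90aa1.2, whose zebrafish paralog hsp90aa1.1 is needed in developing muscle, varied more between pools than between exposures. Its values were 357, 196, 193.2 and 104 at 1 mg/L, against 329, 439, 366 and 121 at 0.5 mg/L. Pool d was lowest in both groups, and pool a at 1 mg/L lay above pool a at 0.5 mg/L. The log2 fold change was -0.55 ± 0.20 (SE, limma adjusted p = 0.748, edgeR adjusted p = 0.0285). It was -0.25 without pool d at 1 mg/L and -0.95 without pool d at 0.5 mg/L, where limma called it with an adjusted p of 2.66e-04. In the other 7 leave-outs the adjusted p was between 0.394 and 0.984. The untreated pools had 413, 386 and 353, all above 3 of the 4 pools at 1 mg/L. The gene ahsa1b, for an activator of Hsp90, had 24.9, 3.49, 18.7 and 12.5 at 1 mg/L, against 33.03, 29.1, 28.5 and 21.8 at 0.5 mg/L, a log2 fold change of -1.17 ± 0.33 (SE) that was -0.61 without pool b at 1 mg/L.

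Fast muscle genes were lower in single members only. The gene myl1, for a light chain of fast skeletal myosin, had 719.5, 649, 769 and 648 at 1 mg/L, against 1034, 804, 1122 and 953 at 0.5 mg/L. The groups did not overlap, and the log2 fold change was -0.48 ± 0.12 (SE, limma adjusted p = 0.257, edgeR adjusted p = 0.0285). The untreated pools had 934, 459 and 579.5. The gene mylz3, another light chain and one of the highest values of all, had 3910.5, 3453, 4289.5 and 3414 at 1 mg/L, against 4832, 3974, 4321 and 4606 at 0.5 mg/L, a log2 fold change of -0.24 ± 0.11 (SE). Across 36 tested skeletal muscle genes, 19 were below 0 and 17 above, the median was -0.02, and myl1 and mylz3 were the 2 at an unadjusted p under 0.05. Under rescaling by library total and under quantile normalization, the median of the muscle list was above 0 (0.04 and 0.05). Rescaling by library total also raised the median of all genes, given above with the ribosomal genes, and the muscle median stayed below it.

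Crystallins, the soluble proteins that give the lens its refractive power, were lower at 1 mg/L in most members. Of 36 tested crystallin genes, 29 were below 0, with a median of -0.21. At an unadjusted limma p under 0.05, 8 were lower and 0 higher, and 4 had no overlap between the groups, all lower. Over all tested genes, 2.42% were lower at that p and 1.47% were lower without overlap. Of the 694 genes with the highest levels, 66 were lower at that p. No crystallin gene was called by limma in the main fit. Among the 23 alternative settings, crygm2d11 and crygm2d2 were called in 2 each and crygm2d4 in 1. The gene crygm2d11, of the gamma M family that fills the fish lens, had 169, 185, 143 and 171 at 1 mg/L, against 271, 249, 217 and 201 at 0.5 mg/L. The log2 fold change was -0.49 ± 0.14 (SE, limma adjusted p = 0.600). Its relatives crygm2d15, crygm2d2 and crygm2d4 had log2 fold changes of -0.40, -0.37 and -0.44, with overlap between the groups. For crygm2d2 and crygm2d4, leaving out pool c at 1 mg/L brought the log2 fold change to -0.18 and -0.25. The crystallin sum was 11492, 9089, 8345 and 11388 at 1 mg/L, against 11907, 10553, 10344 and 12843 at 0.5 mg/L. Pools a and d were higher than pools b and c in both groups, and the groups overlapped. For each letter, the sum was lower at 1 mg/L than at 0.5 mg/L, but the letters were not taken as pairing the pools. The gamma M genes are close in sequence, so reads of single members are uncertain.

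**Figure D4:**
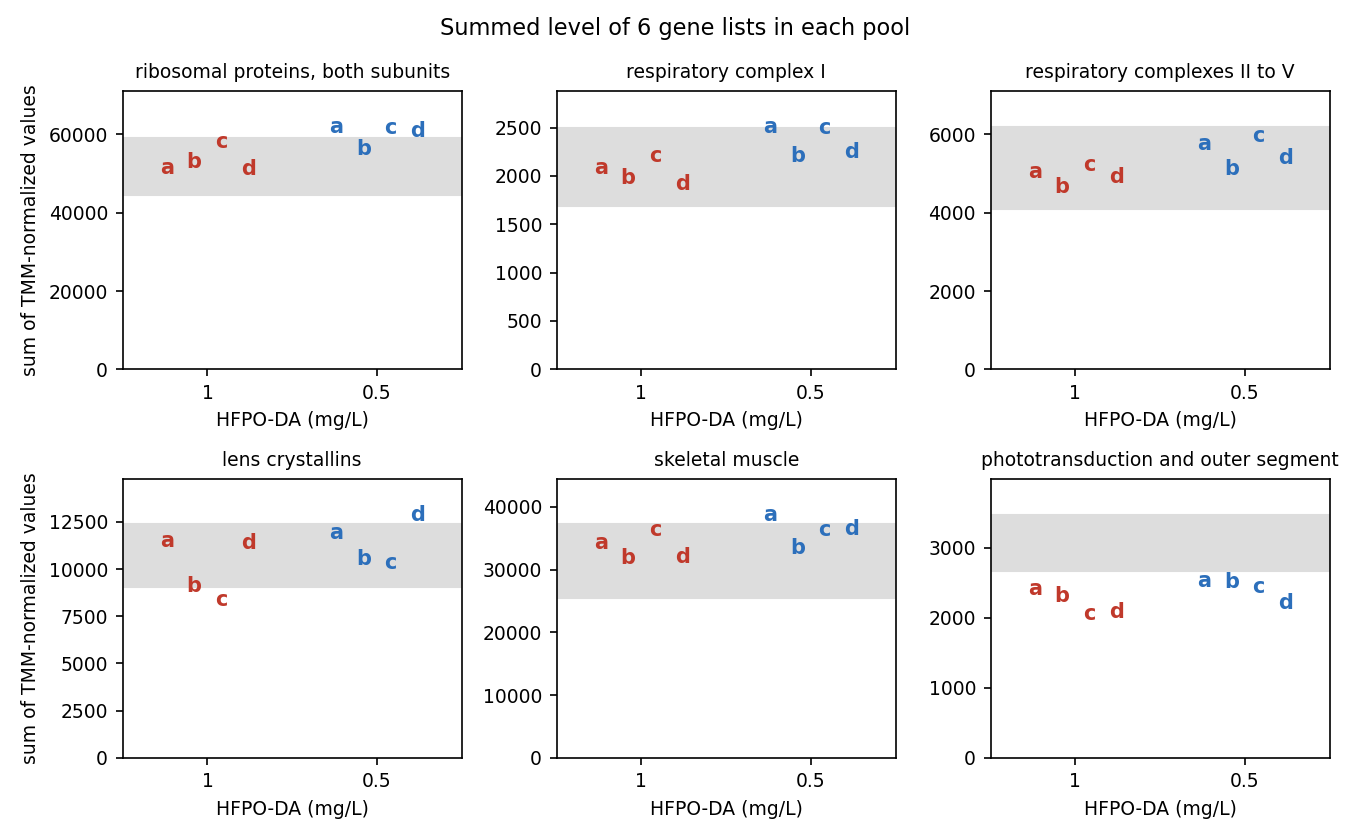
Sum of TMM-normalized values over 6 gene lists in each pool at 1 mg/L (left) and 0.5 mg/L (right), each pool drawn as its letter, with the range of the 3 untreated pools as a grey band. Only complex I separates the groups fully, and the phototransduction sums of both exposures lie below the untreated band.

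Tubulin and actin genes, used for the cytoskeleton, were lower in 15 of 16 tested members, with a median of -0.17. At an unadjusted p under 0.05, 4 were lower, beside 2.42% of all tested genes and 66 of the 694 genes with the highest levels. The gene tuba8l4 had 714, 619.7, 666 and 536 at 1 mg/L, against 845, 839, 815 and 729.6 at 0.5 mg/L, with no overlap and a log2 fold change of -0.35 ± 0.12 (SE). For tuba8l2 the log2 fold change was -0.44 ± 0.17 (SE), and -0.28 without pool c at 0.5 mg/L. The sum over the list was 6344, 5819, 5736 and 5913 at 1 mg/L, against 7250.01, 6299.6, 6495 and 6838 at 0.5 mg/L. Pool a at 1 mg/L was thus just above pool b at 0.5 mg/L. The untreated sums of 6701, 5865 and 6086 lay within the span of the exposures.

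The genes try and nupr1 had large differences on few reads. The gene try, for the digestive protease trypsin, had 1.92, 5.24, 15.9 and 6.01 at 1 mg/L, against 23.12, 16.4, 35.3 and 7.05 at 0.5 mg/L. These values stand for 1, 3, 11 and 13 reads at 1 mg/L and 14, 9, 26 and 11 reads at 0.5 mg/L. The log2 fold change of try was -1.55 ± 0.44 (SE, limma adjusted p = 0.520). Limma called it without pool c at 1 mg/L (adjusted p = 0.0511) and without pool d at 0.5 mg/L (adjusted p = 0.0295), and in none of the other 6 leave-outs (0.237 to 0.984). The gene nupr1, for a stress-induced nuclear protein first found in the pancreas, had 1.92, 36.7, 13.0 and 12.5 at 1 mg/L, against 28.1, 27.3, 39.3 and 21.8 at 0.5 mg/L. The log2 fold change was -1.37 ± 0.37 (SE, limma adjusted p = 0.488) and -0.64 without pool a at 1 mg/L, which had 1 read. Without pool b or d at 1 mg/L, or pool d at 0.5 mg/L, limma called it with adjusted p of 0.0292, 0.0919 and 0.0759, and in the other 5 leave-outs the adjusted p was between 0.197 and 0.984. Over the 10 tested genes of the pancreatic enzyme list, which does not hold try, 7 were below 0, with a median of -0.13, and their sums ran between 11 and 38 at 1 mg/L and between 10 and 44 at 0.5 mg/L.

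The higher genes named for their small p had levels far below those of the ribosomal protein genes named above. Of the 199 genes higher at an unadjusted limma p under 0.05, 22 were among the 694 genes with the highest levels, of 6933 tested. A low level was thus no more usual among the higher genes than among all tested genes. Of the 168 lower genes, 66 were among those 694. The gene sepw2b, for a selenoprotein W, had 21.1, 22.7, 37.5 and 28.2 at 1 mg/L, against 1.65, 16.4, 14.9 and 21.8 at 0.5 mg/L. The log2 fold change was 1.36 ± 0.37 (SE, limma adjusted p = 0.488), and 0.60 without pool a at 0.5 mg/L, which had 1 read. Without pool d at 0.5 mg/L limma called it, with an adjusted p of 0.0295, and in the other 7 leave-outs the adjusted p was between 0.238 and 0.965. The gene arl13b, for a small GTPase of the cilium whose loss gives curved zebrafish embryos with kidney cysts, had 32.6, 33.2, 38.9 and 27.7 at 1 mg/L, against 14.9, 16.4, 16.3 and 26.3 at 0.5 mg/L. It did not overlap between the groups, and the log2 fold change was 0.85 ± 0.26 (SE, limma adjusted p = 0.748). The untreated values of arl13b, 27.7, 22.1 and 26.7, lay between the group means of 33.1 at 1 mg/L against 18.5 at 0.5 mg/L.

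The other genes named for higher values were of like level. The gene brd3a, for a bromodomain protein that reads acetylated histones, had 32.6, 33.2, 28.8 and 25.9 at 1 mg/L, against 13.2, 12.7, 17.6 and 23.7 at 0.5 mg/L. The gene sec23a, for a coat protein of vesicles leaving the endoplasmic reticulum that zebrafish need for cartilage, had 34.5, 38.4, 33.2 and 33.3 at 1 mg/L, against 29.7, 16.4, 17.6 and 19.9 at 0.5 mg/L. The log2 fold changes were 0.86 for brd3a (SE 0.27) and 0.76 for sec23a (SE 0.25), with no overlap in either. 3 more genes without overlap were zgc:77262, znf1035 and evlb, the last for an Ena/VASP protein of actin filament ends. Their means were 31.0 ± 2.41, 63.1 ± 9.54 and 32.8 ± 4.62 at 1 mg/L, and 16.595 ± 4.77, 41.5 ± 3.51 and 19.6 ± 7.31 at 0.5 mg/L (SD, n = 4). Overlap was seen for ppp6r2a, a regulatory subunit gene of protein phosphatase 6, with a log2 fold change of 0.85 ± 0.29 (SE) that was 0.53 without pool c at 0.5 mg/L. It was also seen for actc1a, an alpha actin gene of heart and muscle, with 17.3, 14.0, 33.2 and 16.2 at 1 mg/L, against 16.5, 5.46, 5.43 and 11.5 at 0.5 mg/L.

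Subunit genes of the sodium pump, which restores ion gradients in neurons after firing, were among the better covered higher genes. The gene atp1a3a, for its neuronal alpha subunit, had 299, 227, 247 and 319.8 at 1 mg/L, against 173, 204, 189.9 and 253 at 0.5 mg/L. The log2 fold change was 0.41 ± 0.14 (SE, limma adjusted p = 0.748), and only pool d at 0.5 mg/L reached into the other group. The gene atp1b2a, for a beta subunit, had 80.6, 66.3, 67.8 and 90.1 at 1 mg/L, against 38.0, 52.8, 50.2 and 66.7 at 0.5 mg/L, a log2 fold change of 0.57 ± 0.19 (SE, limma adjusted p = 0.748). The untreated pools had 224, 358 and 369 for atp1a3a, so that the mean at 0.5 mg/L was the lowest of the 3 groups. Over the 13 tested genes of the pump, 6 were above 0 and the median was -0.01.

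Neuronal genes had medians near that of all genes, with a few well covered members higher at 1 mg/L. Among 38 tested genes of neurons and axon growth, 22 were above 0 and the median was 0.06. At an unadjusted p under 0.05, 3 were higher and 2 lower, beside 2.87% and 2.42% of all tested genes. The growth cone gene marcksl1b averaged 950.4 ± 95.1 at 1 mg/L against 789.6 ± 73.7 at 0.5 mg/L, and the microtubule regulator gene stmn1b 302 ± 28.9 at 1 mg/L against 244 ± 16.56 at 0.5 mg/L (SD, n = 4). The stmn1b groups did not overlap. The GABA-synthesizing enzyme gene gad2 had 113, 96.0, 92.3 and 114 at 1 mg/L, against 85.9, 91.0, 73.3 and 91.7 at 0.5 mg/L, again without overlap and with a log2 fold change of 0.28 ± 0.17 (SE). Of 12 tested GABA and glycine genes, 9 were above 0, with a median of 0.08. The synuclein gene sncgb, also without overlap, averaged 18.3 ± 3.74 at 1 mg/L against 9.97 ± 2.42 at 0.5 mg/L (SD, n = 4), on 105 reads in all.

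No vision gene was called between the exposures by limma in the main fit, or by edgeR or DESeq2 without a block. Among the 23 alternative settings, gngt2b was called in 1. The 6 tested cone and rod opsin genes had a median log2 fold change of -0.08, with 0 at an unadjusted p under 0.05 in limma. The blue cone opsin gene opn1sw2 averaged 134 ± 26.2 at 1 mg/L against 151 ± 16.4 at 0.5 mg/L, and the red cone opsin gene opn1lw2 382 ± 76.0 at 1 mg/L against 348 ± 49.1 at 0.5 mg/L (SD, n = 4). The log2 fold change was -0.18 ± 0.16 (SE) for opn1sw2 and 0.12 ± 0.14 (SE) for opn1lw2. Of 34 tested phototransduction and outer segment genes, 17 were above 0 and 17 below, and the median was 0.00. The 1 at an unadjusted p under 0.05 was gngt2b, for the gamma subunit of cone transducin, with overlap between the groups and with 856, 789, 727 and 625 at 1 mg/L, against 1001, 964, 925 and 819 at 0.5 mg/L and a log2 fold change of -0.31 ± 0.12 (SE, limma adjusted p = 0.760). Of the 34 genes, 2 did not overlap, 1 higher and 1 lower, beside 1.46% and 1.47% of all tested genes. These were pdca (phosducin), singled out once its values were known, at a log2 fold change of 0.96 ± 0.56 (SE) on 27 reads, and rgs9a, for a regulator of G protein signalling, with -0.74 ± 0.39 (SE) on 84 reads. The alpha subunit gene gnat2 averaged 155 ± 19.1 at 1 mg/L against 183.1 ± 23.4 at 0.5 mg/L (SD, n = 4). Both exposures had lower phototransduction sums than all untreated pools, between 2055 and 2406 at 1 mg/L and between 2214 and 2528 at 0.5 mg/L, against 2661 to 3460.0 in untreated pools.

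Genes of lipid handling, foreign compound metabolism and the heart gave little difference. Among 36 tested genes of fatty acid oxidation and PPAR targets, 15 were above 0 and the median was -0.05. At an unadjusted p under 0.05, 1 was higher and 0 lower, beside 2.87% and 2.42% of all tested genes. The peroxisomal catalase gene cat, named as a leading gene of this list, averaged 14.5 ± 2.03 at 1 mg/L against 9.38 ± 4.72 at 0.5 mg/L (SD, n = 4), with overlap. Among 8 fatty acid binding protein genes the median was -0.15, and fabp11b was the 1 higher at an unadjusted p under 0.05, with a log2 fold change of 0.64 ± 0.28 (SE). The apolipoprotein gene apoa1a of high-density lipoprotein ranged between 65.2 and 226 at 1 mg/L and between 126 and 233 at 0.5 mg/L. The log2 fold change was -0.38 ± 0.19 (SE), and close to 0 without pool a at 1 mg/L. Of 59 tested genes of phase I to III metabolism, 32 were above 0 and the median was 0.05, with 0 higher and 3 lower at an unadjusted p under 0.05, among them aldh7a1, an aldehyde dehydrogenase gene (57.6 ± 13.1 at 1 mg/L against 75.2 ± 5.74 at 0.5 mg/L, SD, n = 4). The 19 tested cardiac genes had a median of 0.03, and actc1a was the 1 at an unadjusted p under 0.05.

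Skin, matrix, splicing and immune genes had single members at an unadjusted p under 0.05 and medians near 0. Of all tested genes, 2.87% were higher and 2.42% lower at that p. Of 37 epidermal and keratin genes, with a median of 0.02, evpla and krt97 were the 2 higher and krt92 the 1 lower. The keratin gene krt92 was lowest in pool d of both groups, with 61.4, 52.4, 73.5 and 33.3 at 1 mg/L, against 116, 83.7, 97.7 and 39.7 at 0.5 mg/L. The log2 fold change was -0.56 ± 0.21 (SE, limma adjusted p = 0.760), and it was called without pool d at 0.5 mg/L, at -0.88 and an adjusted p of 0.0295, and in the other 7 leave-outs the adjusted p was between 0.731 and 0.984. For krt97 the log2 fold change of 0.57 became 0.22 without the same pool. Of 39 collagen and matrix genes, with a median of -0.02, 2 were higher and 1 lower at that p. The higher ones were timp2b, with a log2 fold change of 1.21 ± 0.56 (SE, 41 reads), and thbs4a, named after its values were seen, with 1.19 ± 0.56 (SE, 24 reads), both with overlap. The lower one, the matrix metalloprotease gene mmp14a, did not overlap, with 15.4, 19.2, 20.19 and 16.2 at 1 mg/L, against 31.4, 27.3, 31.2 and 25.6 at 0.5 mg/L. Among 71 splicing genes, with a median of -0.06, 4 were lower and 0 higher. The RNA-binding protein gene hnrnpa0l averaged 235 ± 26.2 at 1 mg/L against 304 ± 24.2 at 0.5 mg/L with no overlap, and the splicing factor gene srsf1a 132 ± 16.0 at 1 mg/L against 182 ± 31.9 at 0.5 mg/L (SD, n = 4).

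Translation factor genes, which act with the ribosome, had a median near 0. Of 49 tested, 29 were below 0 and the median was -0.05. At an unadjusted p under 0.05, 1 was higher and 1 lower, beside 2.87% and 2.42% of all tested genes. The lower one was eef1b2, an exchange factor subunit of elongation, with 272 ± 22.7 at 1 mg/L against 338 ± 40.1 at 0.5 mg/L. The higher one was eef1a1a, an elongation factor gene, with 23.04 ± 4.06 at 1 mg/L against 14.3 ± 4.73 at 0.5 mg/L (SD, n = 4), whose log2 fold change of 0.72 was 0.44 without pool b at 0.5 mg/L. In the proteasome, 3 of 43 genes were higher and 1 lower, with a median of -0.06, and psmd12, of its lid, had a log2 fold change of 0.55 ± 0.23 (SE). Of 31 genes of the proton pump and lysosome, with a median of 0.03, 2 were higher and 1 lower at that p. Of the 2 higher, atp6ap1b and atp6v0b, neither overlapped, and atp6v0b averaged 29.7 ± 4.54 at 1 mg/L against 19.3 ± 2.22 at 0.5 mg/L (SD, n = 4). The lower one, glb1l, overlapped, and atp6ap1lb lay lower without overlap on 51 reads, both named after their values were seen. Among 14 neutrophil and macrophage genes, the median was 0.09, 8 were above 0, and 2 were higher and 1 lower at that p. The 2 higher, named after their values were seen, were cxcr4b, with a log2 fold change of 1.18 ± 0.52 (SE, 13 reads) and overlap, and mmp13a, with 0.88 ± 0.42 (SE, 6 reads) and no overlap. The lysozyme gene lyz was lower in its mean, 16.8 ± 8.07 at 1 mg/L against 24.5 ± 2.78 at 0.5 mg/L (SD, n = 4), but pools c and d at 1 mg/L lay within the other group's range. Apart from lists of the study's own calls, the largest list medians above 0, 0.34 for 13 vessel genes and 0.29 for 24 circadian clock genes, came with 1 and 0 genes at an unadjusted p under 0.05. For the vessel genes the median was -0.02 without pool c at 1 mg/L.

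**Figure D5:**
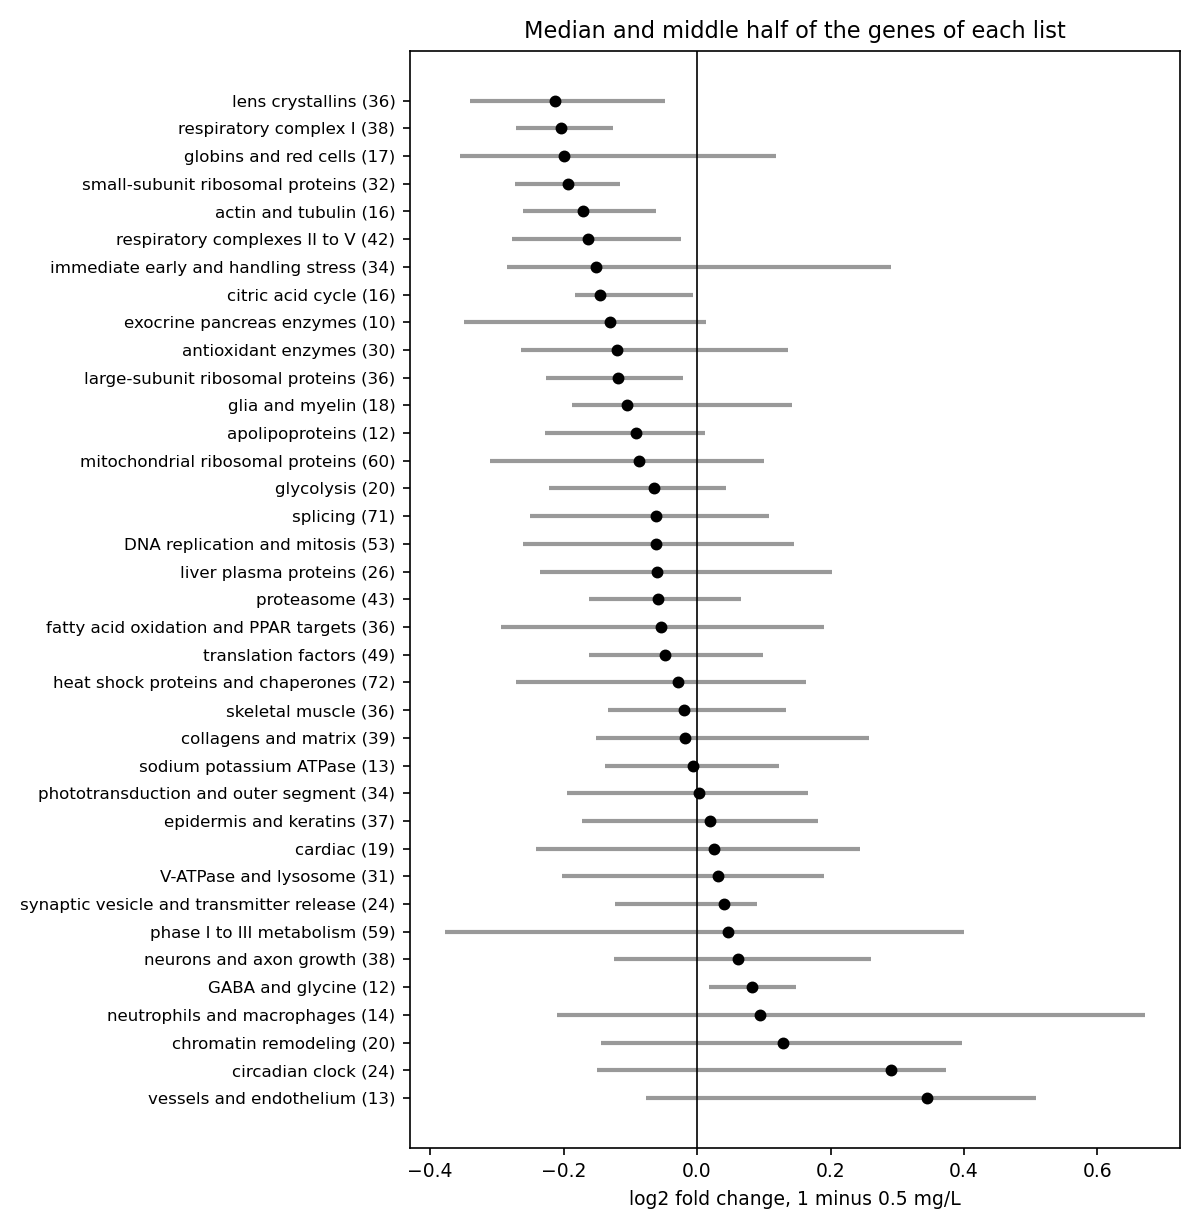
Median log2 fold change (1 minus 0.5 mg/L, points) and the range between the quartiles of its genes (bars) for each gene list with at least 10 tested genes other than the study's own calls, the number tested in brackets. Lens crystallins, complex I, red cell genes, small-subunit ribosomal proteins, actin and tubulin, and complexes II to V have the lowest medians, in this order, and most bars span 0.

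The study had called genes in each exposure against untreated embryos, from these same pools, so the lists of its calls are not independent evidence of a direction. Of 493 listed genes it called at 0.5 mg/L and not at 1 mg/L, 457 were tested here. Of these, 59 were higher and 50 lower at an unadjusted limma p under 0.05. Over all tested genes, 2.87% were higher and 2.42% lower at that p. The reverse list, called at 1 mg/L and not at 0.5 mg/L, had 26 tested genes higher and 14 lower, and 194 were above 0 and 51 below. Of 108 tested genes called at both, 0 were higher and 1 was lower. None of the tested genes was called in the main fit of the direct contrast (adjusted p under 0.1, limma), and the untested ones could not be. The medians were 0.07, 0.37 and -0.08. The genes rpl24, rps28, rps19 and myl1 belong to the first list, and tomm6, crygm2d11, arl13b and srsf1a to the second. Of the 37 tested genes the study called in every exposure, 26 were below 0, the median was -0.07, and gngt2b was the 1 at an unadjusted p under 0.05. Among them, rps13 averaged 767 ± 105 at 1 mg/L against 868 ± 37.7 at 0.5 mg/L (SD, n = 4), a log2 fold change of -0.19 ± 0.12 (SE).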

How the data were processed

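Poly(A) RNA of embryo pools was sequenced at low depth, with molecular identifiers. The authors trimmed the reads (Trimmomatic 0.40), handled identifiers with UMI-tools 1.1.2, aligned to GRCz10 with STAR, counted reads on genes with HTSeq 0.13.5 and applied TMM scaling. The deposited values are a signal, TMM-normalized expression with 1 column per pool, and 100% of the values above each column's smallest were whole multiples of 1 read (tolerance 0.0001). Zeros had been replaced by 0.5 reads. 1 untreated pool had no column in these values, which are labelled as having outliers removed. It was not analysed here, and every untreated range is that of the pools that remained.

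The groups, 4 pools each, were compared with limma 3.58.1 (trend, two-sided) in R 4.3.3 on log2(value + 0.5), for 6933 genes averaging over 2.75 CPM across 19 pools. Fold changes on this scale understate changes of low genes. Standard errors are limma's. The study's own test, noiseqbio, was not run. Whole reads were recovered for edgeR 4.0.16 and DESeq2 1.42.0. The fits were tested on simulated data. Replicates are separate pools of embryos.

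Named genes were those called, the 10 higher and 10 lower with the smallest p among genes with at least 40 reads over the 8 pools, and up to 4 leading genes of each list. Members and lists were chosen with earlier results of these data known. Lists carry no test of their own. Alternatives were a pseudocount of 0.1 or 2, other filters, replaced zeros set to 0, other scalings, no trend, a fit over 5 groups, a replicate block, a threshold of 0.05, edgeR, DESeq2 and leaving out each pool. Pools a to c alone were added after seeing the data.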

Additional observations from a re-analysis of the deposited data

Results flagged for a closer look

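Values of single pools were compared with the other 3 of their group for read depth and 68 of the genes named, 138 sets of 4 in all, and 14 sets had 1 pool that stood apart by Dixon's criterion. Chance alone gives this in about 1 in 20 sets. Pool d at 1 mg/L was the deepest, with 581494 reads on genes. At 1 mg/L, pool c was high in rps28 (993) and ndufb11 (80.7), the genes for a small-subunit ribosomal protein and a complex I subunit, and pool d was high in the RNA-binding protein gene hnrnpa0l (274). At 0.5 mg/L, pool a was high in cyc1 (379.8), for cytochrome c1, and in the blue opsin gene opn1sw2 (175). Pool b at 0.5 mg/L was low in the elongation factor gene eef1a1a (7.28) and high in the aldehyde dehydrogenase gene aldh7a1 (83.7). Pool c at 0.5 mg/L was high in rpl39 (1743), ndufa8 (61.0) and sncgb (13.6) and low in lyz (20.3). Pool d at 0.5 mg/L was high in the cilium gene arl13b (26.3) and low in the splicing factor gene srsf1a (135).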

How the results depend on the processing

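Where limma as reported called 0 genes, edgeR on the recovered reads called 8, no filter on low values 8, a filter over the 8 pools alone 2 and pools a to c alone 9. Leaving out 1 pool gave between 0 and 10, with 10 without pool d at 0.5 mg/L, 5 without pool c and 5 without pool d at 1 mg/L, and 1 without pool b at 1 mg/L. The genes rpl24 and rps28 were called in 9 of 23 settings each. With a replicate block for the letters a to d, limma called 19 genes and edgeR 22. The main fit did not take the letters as pairing the pools. Deviations of same-letter pools correlated between 0.02 and 0.18, and those of other pairs between -0.07 and 0.03. Of the 8 pools, 7 correlated best with their own letter. Whether pools of a letter shared a batch was not tested, so the 0 calls hold for the unpaired fit only. The count of ribosomal protein genes lower at an unadjusted p under 0.05, 17 as reported, was 30 with the replicate block in limma and 30 in edgeR, 9 after rescaling by library total, 5 under quantile normalization and 2 without the trend. Leaving out 1 pool gave between 10 and 23. Of 68 named genes checked, none had a log2 fold change that turned sign under any alternative run. Most of them were chosen by a small p in the main fit of these pools, so a steady sign is partly set by that choice. Of 46 list medians, 13 moved under some alternative by at least the spread between pools of a group. Some genes named on few reads, such as mmp13a and cxcr4b, were not among those checked. At these depths a low gene such as try rested on a few reads per pool, so its fold change is loosely set. The pools of a group are few, and the cause of these shifts was not tested.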
